A study of Homo sapiens with 35 samples.

Results

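The forkhead factor genes were followed in H9 human embryonic stem cells for 48 h of differentiation. Members were all genes of the deposited count table whose symbol is FOX, a letter from A to S and a number, less 1 gene that the rule leaves out. This gave 43 of the 58581 genes in the table, and 30 of the 43 reached at least 1 CPM (a library's counts scaled to a common total with TMM factors) in at least 3 of the 35 libraries. The 3 genes by which the family was to be recognised were all present: FOXI3 and FOXH1 were at or above 1 CPM in 35 libraries and FOXF1 in 5.

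H9 is an established embryonic stem cell line, and its poly(A) RNA was sequenced in 35 libraries that form 25 groups. The BA libraries (12) came from cells seeded as single cells into E6 medium with BMP4 and Activin A, each at 40 ng/mL as the label reads, the treatment that the series calls mesendoderm. The E6 libraries (10) came from the same basal medium without the 2 ligands, the control for spontaneous differentiation, and the E8 libraries (10) from the medium that keeps the cells pluripotent. Each medium was sampled every 6 h up to 48 h, and 4 of these groups have 3 libraries each: both BA groups at 24 and 48 h and the last E6 and E8 groups. The last group, t0, holds 3 libraries of cells at time zero. All other groups are 1 library and all cells are 1 line. Nothing in the labels tells separate cultures from repeat libraries, so p-values measure only the spread between these libraries.

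Forkhead factors share a DNA-binding domain of winged-helix form and bind related short sequences. In the early embryo, individual members act at successive steps. FOXH1 carries activated SMAD proteins to DNA downstream of Nodal and Activin, FOXD3 is needed in the mouse for the pluripotent epiblast and later for neural crest, and FOXC and FOXF proteins act in mesoderm and its mesenchyme. Others work in most cells: FOXO proteins are kept out of the nucleus by insulin and AKT signalling, and FOXM1 drives genes of mitosis. In bulk RNA, fewer cells that express a gene and less RNA per cell cannot be told apart.

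The promoters of 6 members are shown, chosen among those with a RefSeq entry because these genes carry large differences below: FOXQ1, FOXF2 and FOXC1 lie side by side on chromosome 6 and were higher in BA, FOXI3 was already high in BA at 6 h, and FOXD3 and FOXB1 were lower in BA. A promoter entry was matched for 33 of the 43 members, and FOXF1 and FOXJ1 are among those not shown. Each run is 300 bases, 250 before and 50 after the RefSeq start on GRCh38.p14, written 5′ to 3′ on the gene's strand. Capitals mark matches to 9 motifs.
FOXQ1, chr6:1311848-1312147, plus strand: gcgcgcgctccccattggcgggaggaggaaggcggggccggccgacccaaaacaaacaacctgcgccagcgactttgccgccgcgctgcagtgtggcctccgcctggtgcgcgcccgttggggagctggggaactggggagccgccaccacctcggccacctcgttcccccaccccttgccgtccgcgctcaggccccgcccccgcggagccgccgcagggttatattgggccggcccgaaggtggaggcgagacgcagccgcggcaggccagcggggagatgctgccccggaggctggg
FOXF2, chr6:1389326-1389625, plus strand: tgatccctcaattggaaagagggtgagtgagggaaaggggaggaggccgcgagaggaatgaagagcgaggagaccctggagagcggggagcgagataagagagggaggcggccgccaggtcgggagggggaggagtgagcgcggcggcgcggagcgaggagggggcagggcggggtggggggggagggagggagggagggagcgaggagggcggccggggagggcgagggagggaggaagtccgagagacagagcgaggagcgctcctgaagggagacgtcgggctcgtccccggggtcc
FOXC1, chr6:1609665-1609964, plus strand: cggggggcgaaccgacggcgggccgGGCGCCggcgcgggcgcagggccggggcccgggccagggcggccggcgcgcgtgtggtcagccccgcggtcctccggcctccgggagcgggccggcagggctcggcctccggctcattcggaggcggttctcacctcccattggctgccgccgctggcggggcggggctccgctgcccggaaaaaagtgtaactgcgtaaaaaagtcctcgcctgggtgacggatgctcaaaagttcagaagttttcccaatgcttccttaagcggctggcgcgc
FOXI3, chr2:88452644-88452943, minus strand: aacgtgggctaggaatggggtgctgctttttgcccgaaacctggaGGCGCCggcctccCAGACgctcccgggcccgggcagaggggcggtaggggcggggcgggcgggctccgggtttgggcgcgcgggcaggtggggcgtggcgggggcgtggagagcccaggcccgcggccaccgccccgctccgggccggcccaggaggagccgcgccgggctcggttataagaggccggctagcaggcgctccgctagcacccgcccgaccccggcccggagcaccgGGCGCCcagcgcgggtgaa
FOXD3, chr1:63322317-63322616, plus strand: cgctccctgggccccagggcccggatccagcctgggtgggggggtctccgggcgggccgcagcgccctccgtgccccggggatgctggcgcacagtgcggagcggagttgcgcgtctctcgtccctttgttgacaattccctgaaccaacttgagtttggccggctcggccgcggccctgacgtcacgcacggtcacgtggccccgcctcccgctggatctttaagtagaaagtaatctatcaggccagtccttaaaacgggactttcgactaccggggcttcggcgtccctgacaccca
FOXB1, chr15:60004061-60004360, plus strand: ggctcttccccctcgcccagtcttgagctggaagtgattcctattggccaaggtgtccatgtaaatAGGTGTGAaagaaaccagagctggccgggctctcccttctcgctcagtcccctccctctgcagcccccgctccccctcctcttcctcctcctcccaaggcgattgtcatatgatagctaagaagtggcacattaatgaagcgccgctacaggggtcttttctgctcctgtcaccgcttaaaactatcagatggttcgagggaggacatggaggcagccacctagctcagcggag

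Both strands were searched for 9 motifs. The GC-rich SMAD element GGCGCC was found once in the FOXC1 promoter and at 2 places in the FOXI3 promoter, which also holds the SMAD binding element CAGAC once. The FOXB1 promoter holds the T-box motif AGGTGTGA. No match was found in the FOXQ1, FOXF2 and FOXD3 windows, and no matches overlapped. Among all 35116 RefSeq promoters of the same length, 19.2% hold GGCGCC, 45.3% hold CAGAC and 0.98% hold AGGTGTGA, and of the 44 promoters of forkhead genes 15 hold GGCGCC, 15 hold CAGAC and 1 holds AGGTGTGA. The other motifs were the paired SMAD box GTCTAGAC (0.202% of all promoters, 0 of 44), the TCF/LEF site CTTTGAT (2.62%, 1 of 44), the forkhead site GTAAACA (3.42%, 2 of 44), the octamer ATGCAAAT (1.77%, 0 of 44), the FOXH1 site AATCCACA (0.817%, 0 of 44) and the TATA box TATAAA (11.5%, 3 of 44). The median GC content of the 44 promoters was 68.0%, against 58.7% for all promoters.

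The libraries fall into 2 sets that matter for every result. Replicates 2 and 3 (10 libraries) had 26097462 to 37191969 counts and 4.47 to 5.82% of them in ribosomal protein genes. Replicate 1 and the single libraries (25 in all) had 11793453 to 22115047 counts and 1.27 to 3.04% in ribosomal protein genes. Among the 25, the E6 library at 18 h (3.04%) and the E8 library at 24 h (2.45%) were highest. CDH1, the epithelial cadherin, was at 22.1 CPM in the BA library at 42 h and 41.3 in replicate 1 of BA at 48 h, against 453 and 464 CPM in replicates 2 and 3 of that group; it was also low in the E8 libraries at 18 h (18.2) and 36 h (24.2). POU5F1, a pluripotency factor, ranged between 291 and 3280 CPM, and none of the 12 pluripotency markers was under 1 CPM in every library. The blood genes PTPRC and GATA1 stayed at or under 0.202 CPM. From the same list, the endothelial genes CDH5 and PECAM1 ranged from 0.534 to 15.1 and from 0.0318 to 1.06 CPM. Fibroblast markers (8, of which 2 were under 1 CPM throughout) summed to 554 to 977 CPM in BA, 342 to 802 in E6, 480 to 762 in E8 and 657 to 803 at t0, and blood and endothelial markers to 21.4 to 64.6 CPM in BA, 28.9 to 62.1 in E6, 36.4 to 58.7 in E8 and 32.6 to 60.5 at t0. The part of library set in the results was not tested, and within-set values are given where they differ.

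Per kilobase of exon, FOXM1 had the highest level of the family, with a median of 48.4 CPM per kb over the 35 libraries, followed by FOXO1 at 15.9, FOXN3 at 14.8, FOXH1 at 13.7, FOXJ3 at 12.7 and FOXK2 at 10. At t0 FOXO1 averaged 15.8 ± 0.247, FOXN3 13.1 ± 1.37, FOXH1 19.4 ± 9.76, FOXJ3 12.3 ± 2.74 and FOXK2 9.42 ± 0.403 CPM per kb (SD, n = 3 each). FOXH1 overlapped all its neighbours within its spread there, and so did FOXN3 and FOXJ3 each other. FOXD3 (6.73), FOXA3 (6.34), FOXP4 (5.19) and FOXI3 (3.33) had intermediate medians. Several genes with large differences sat near the bottom, among them FOXC1 (0.0818), FOXQ1 (0.0544) and FOXF1 (0.00831 CPM per kb). FOXP1 has an annotated exon length of 36714 bases, so its value of 0.591 CPM per kb is spread over the exons of all its isoforms. Counts of FOXH1 and of FOXM1 may include reads of the opposite-strand genes KIFC2 and ITFG2, whose exons overlap theirs by 791 and 781 bases, because the sources used here do not say whether counting used the strand.

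**Figure D1:**
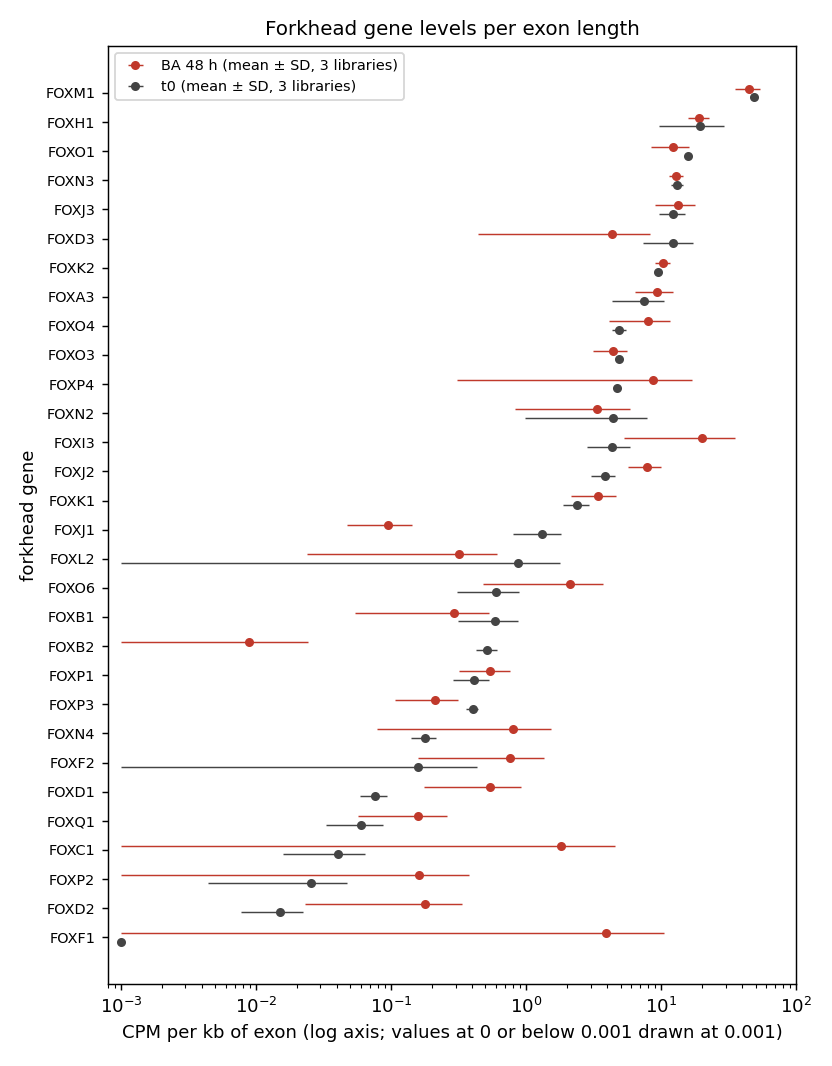
Levels of the 30 forkhead genes that reached 1 CPM in 3 libraries, as CPM per kilobase of exon on a log axis, in BA at 48 h (red, above) and at t0 (black, below). Points are means and lines are ± 1 SD over 3 libraries, with values at 0 or below 0.001 drawn at 0.001. FOXM1 is at the top in both groups, and FOXC1 and FOXF1 have wide bars in BA at 48 h, where replicate 1 stood apart.

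Across the 8 hours sampled once per medium, 21 of the 31 forkhead genes tested differed between BA and E6, or 67.7%, against 28.6% of all 17938 genes tested. Of these, 13 were higher in BA (14.7% of all genes) and 8 lower (13.9% of all genes). The test was the edgeR quasi-likelihood F-test of medium and its interaction with time over 16 libraries, replicate 1 and single libraries only, with Benjamini-Hochberg adjusted p below 0.05 as a call. A log2 difference from this fit is an average over the 8 hours. The adjusted p beside it is that of medium and interaction together and does not test the average alone. The change of the difference with time was called for 7 members, against 8.28% of all genes. The median log2 difference was 0.15 over the forkhead genes tested and -0.01 over all genes tested. Members were chosen for the family name alone, but with earlier results of these data known, and no test of the family as a set was made.

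**Figure D2:**
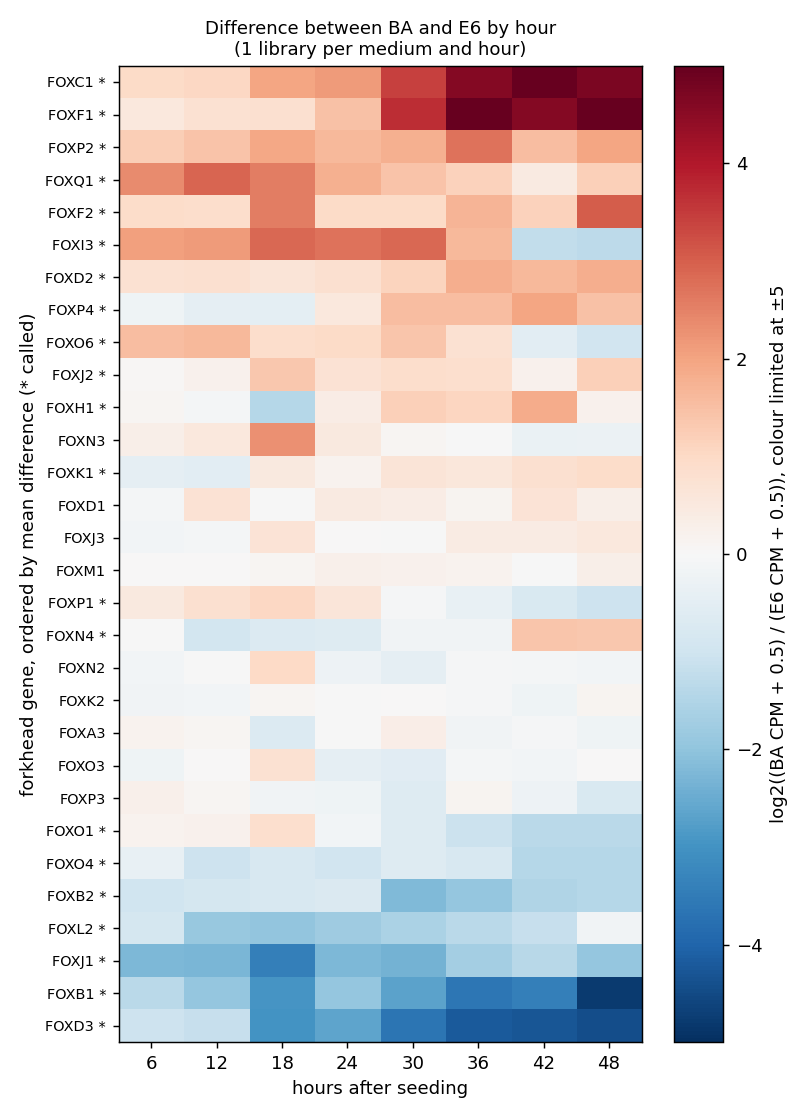
Difference between BA and E6 at each hour for the 30 forkhead genes, as log2 of (BA CPM + 0.5) over (E6 CPM + 0.5), 1 library per medium and hour, with colour limited at ± 5. Genes run from the highest mean difference at the top (FOXC1) to the lowest at the bottom (FOXD3), and an asterisk marks those called in the time course fit. The 18 h column departs from its neighbours in many rows, for instance FOXN3 and FOXH1.

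The 3 genes of the chromosome 6 cluster were all higher in BA than in E6 over the course, with their highest BA values at different hours. FOXQ1 was highest at 12 h, FOXF2 at 36 h and FOXC1 at 42 h. For FOXF2 the hour is uncertain: it had 3.69 CPM (61 counts) at 36 h and 3.58 CPM (56 counts) at 48 h, each in 1 library. By GENCODE release 29 on GRCh38, the 3 genes span 301.5 kb in the order FOXQ1 (chr6:1312440-1314748), FOXF2 (chr6:1389576-1395603) and FOXC1 (chr6:1609972-1613897), all on the plus strand.

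FOXQ1, known in the mouse for hair and stomach epithelium, had 2.32, 3.26, 2.84, 1.81, 1.08, 0.606, 0.182 and 0.639 CPM in BA from 6 to 48 h. In E6 it had at most 0.171 CPM, and it was at 0 counts at 12, 36, 42 and 48 h. Every BA library lay above every E6 library. The fitted difference was 5.50 (adjusted p = 8.71e-06); with E6 at or near 0 its size depends on the prior count and is no bound. In the replicated groups FOXQ1 had 1.81, 1.41 and 1.27 CPM in BA at 24 h, against 0.157, 0.0682 and 0.187 CPM at t0, without overlap. That difference was called by the edgeR quasi-likelihood test (log2 change 3.46 ± 0.67 SE, adjusted p = 0.0335), but leaving out any one of the 6 libraries ended the call, with an adjusted p of 0.0764 to 0.175. At 48 h it had 0.639, 0.244 and 0.222 CPM in BA, against 0 counts in all 3 E6 libraries (adjusted p = 0.0124 by edgeR). Against a floor of 3 counts per E6 library this is at least 3.23-fold higher. Without E6 replicate 2 or 3 the call was lost (adjusted p = 0.0555 and 0.0554).

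FOXF2, which acts in palate and gut mesenchyme in the mouse, had 1.9, 1.96, 2.42, 2.9, 2.88, 3.69, 0.971 and 3.58 CPM in BA, against 0.785, 0.834, 0, 1.25, 1.24, 0.78, 0.167 and 0 CPM in E6 at the same hours. It was higher in BA at 8 of 8 hours (log2 difference 2.83, adjusted p = 0.00294). Replicates 2 and 3 were below replicate 1 in both BA groups, in E8 at 48 h and at t0, and at 48 h they had 1.11 and 0.921 CPM in BA at 48 h, against 0 and 0.0296 CPM in E6. Set beside each other at 48 h, the BA minus E6 difference was 3.03 in replicate 1 and 1.56 in replicates 2 and 3, on the log2(CPM + 0.5) scale. FOXF2 was not called in the replicated edgeR fit at 48 h (log2 6.88 ± 2.32, adjusted p = 0.148). It was called with the replicate number as a block (6.87 ± 1.24, adjusted p = 0.00284). Here and below, the block is a pairing inferred from these same data and not given by the labels.

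FOXC1, needed for head and heart mesoderm and the front of the eye, had 0.948, 1.48, 1.93, 3.46, 8.23, 14.5, 59.1 and 19.7 CPM in BA from 6 to 48 h. In E6 it stayed between 0.12 and 0.477 CPM. The difference was 0.96 at 6 h and 6.48 at 42 h on the log2(CPM + 0.5) scale, the average fitted difference was 4.52 (adjusted p = 3.23e-06), and the change of the difference with time was itself called (adjusted p = 0.0424). In the 3 libraries of BA at 48 h it had 19.7, 0.974 and 0.667 CPM, against 0.275, 0.0584 and 0.0593 CPM in E6 at 48 h, so replicates 2 and 3 were above E6 but far below replicate 1. The replicated fit made no call (5.92 ± 1.79, adjusted p = 0.104), and with the replicate block it did (5.10 ± 0.74, adjusted p = 0.000785). Against t0 (0.262, 0.136 and 0.0748 CPM) the block likewise moved FOXC1 past the threshold, with 4.67 ± 0.72 and adjusted p = 0.00099.

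FOXF1, a factor of lateral and extraembryonic mesoderm in the mouse, lies on chromosome 16 (chr16:86510527-86515418, GRCh38) within 71.6 kb of FOXC2 and FOXL1. It had 0.211, 0.355, 0.363, 1.03, 6.58, 20.3, 11.6 and 40.2 CPM in BA, against at most 0.0569 CPM in any E6 library of the course. It was called higher over the course (7.03, adjusted p = 4.1e-05), with a size that depends on the prior count. Among replicates it was the sharpest case of the split between library sets: BA at 48 h had 40.2, 0.348 and 0.318 CPM, against 0 counts in all 3 t0 libraries. The BA at 48 h mean was 13.6 ± 23 CPM (SD, n = 3), at least 110-fold above a t0 floor of 3 counts per library, and that bound rests on replicate 1. FOXF1 did not pass the low-count filter of the replicated fit and was not tested there. Its neighbours FOXC2, a factor of lymphatic vessels, and FOXL1, of gut mesenchyme, passed that filter but were under the 1 CPM level of description. Their third-highest values were 0.905 and 0.982 CPM. FOXC2 had 0.927 ± 0.364 CPM in BA at 48 h, against 0.164 ± 0.0633 CPM in E6 at 48 h (SD, n = 3 each; adjusted p = 0.218 by edgeR).

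Other members that were higher in BA over the course had smaller values or later onsets. FOXD2 had 0.474 to 1.66 CPM in BA, against 0 to 0.171 CPM in E6, without overlap (log2 difference 3.38, adjusted p = 4.21e-05). In the replicated groups it had 1.66, 0.522 and 0.318 CPM in BA at 48 h, against 0.105, 0.0682 and 0.0374 CPM at t0 (3.57 ± 0.91, adjusted p = 0.0371 by edgeR). That call was lost on leaving out any one t0 library or BA replicate 1 or 2 (adjusted p 0.0571 to 0.176), and FOXD2 is just inside the level of description, with a third-highest value of 1.03 CPM. FOXJ2 had 30.9 to 64.3 CPM in BA, against 17.1 to 34.4 CPM in E6, and was higher in BA at 8 of 8 hours (0.70, adjusted p = 0.00686). FOXJ2 was also higher in all 3 replicates of BA at 48 h (64.3, 40.6 and 42.3 CPM) than in E6 at 48 h (27.6, 28.1 and 26.2 CPM), a difference called with the replicate block (0.80 ± 0.17, adjusted p = 0.00694) and not without it (adjusted p = 0.179). FOXK1, a nuclear factor present in most cells, had 28.4 to 66.7 CPM in BA, against 26.5 to 43.3 CPM in E6; its call (0.34, adjusted p = 0.0268) was lost without the 6, 12, 30, 36 or 42 h libraries (adjusted p 0.0552 to 0.0752).

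**Figure D3:**
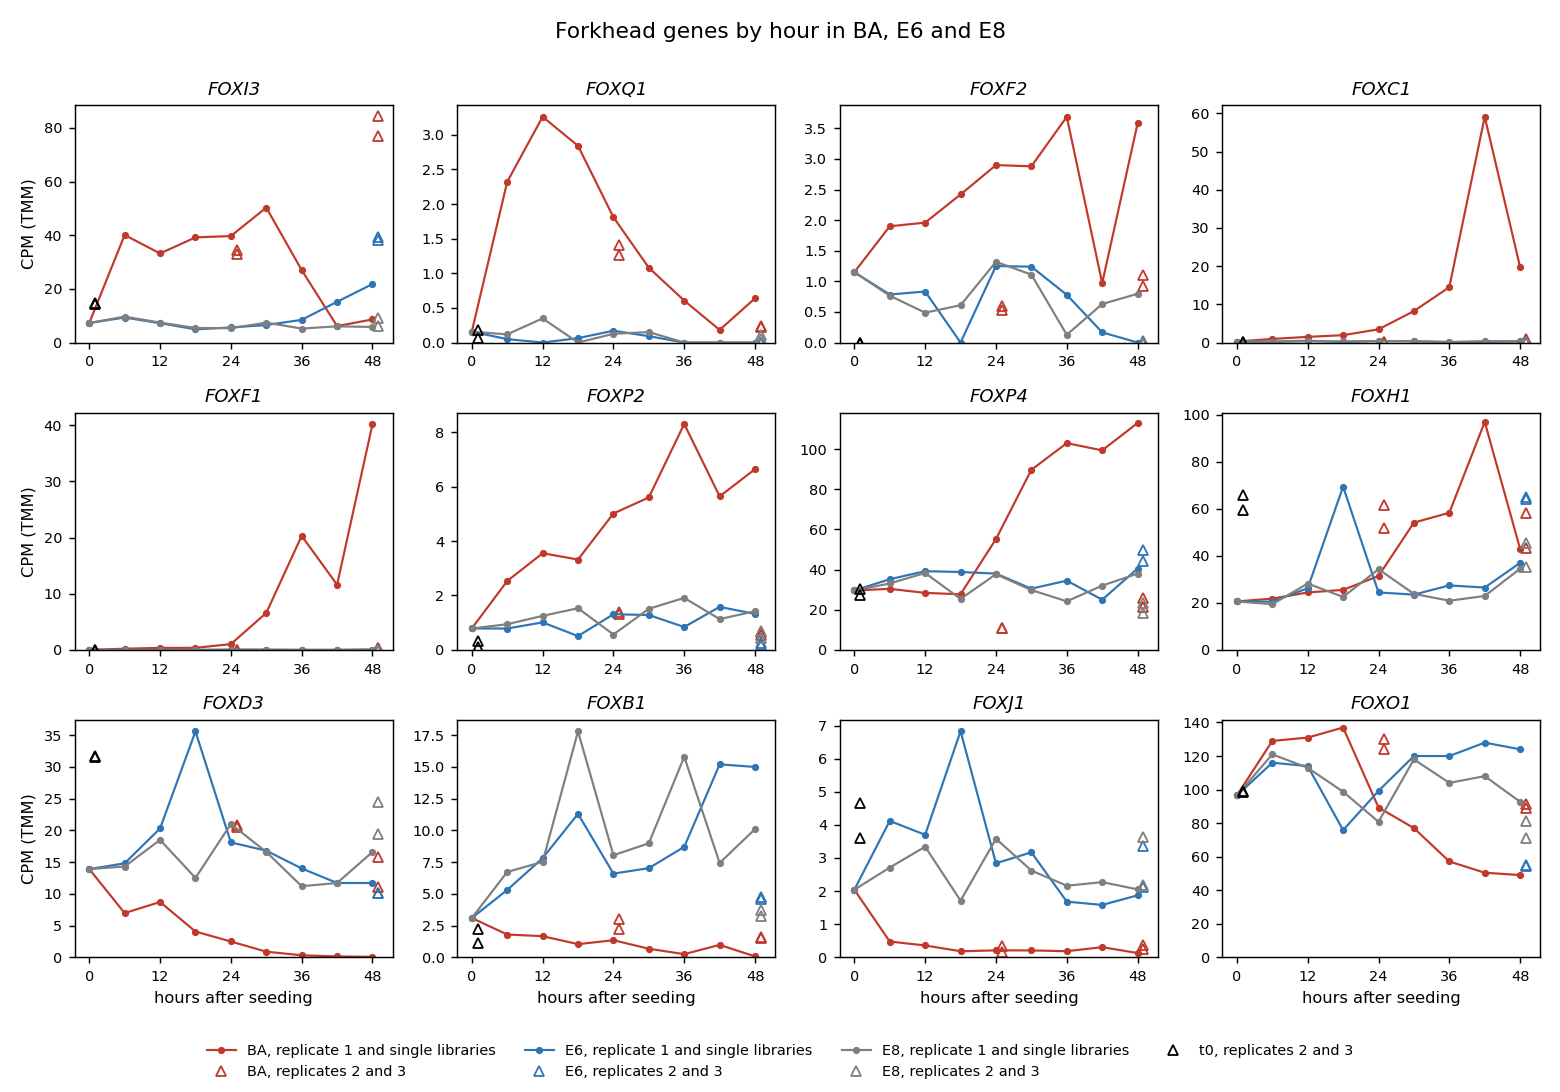
CPM by hour for 12 forkhead genes in BA (red), E6 (blue) and E8 (grey); lines join replicate 1 and single libraries from t0 on, and open triangles are replicates 2 and 3, drawn 1 h to the right of their hour. FOXQ1 is highest in BA at 12 h and FOXC1 at 42 h, FOXD3 runs down to 0.0639 CPM in BA at 48 h, and the triangles of FOXI3, FOXF1, FOXP4 and FOXD3 at 48 h lie far from the red lines.

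FOXI3, a factor of ectodermal appendages and of the otic placode in the mouse, was above E6 from the first hour sampled. It had 40.1, 33.2, 39.2, 39.7, 50.3, 27.0, 6.13 and 8.62 CPM in BA from 6 to 48 h, against 9.33, 7.21, 4.93, 5.63, 6.52, 8.46, 15.2 and 21.8 CPM in E6. BA was the higher at 6 of 8 hours and the lower at 42 and 48 h. Over the course it was called higher in BA (1.59, adjusted p = 1.57e-05), and the difference changed with time (adjusted p = 0.0011). At 24 h it had 39.7, 33.1 and 34.6 CPM in BA, against 7.28, 14.3 and 14.8 CPM at t0, without overlap, but this was not called (1.61 ± 0.59, adjusted p = 0.319) except with the replicate block (1.75 ± 0.50, adjusted p = 0.0497).

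At 48 h the FOXI3 values of BA went opposite ways in the 2 library sets. Replicate 1 had 8.62 CPM in BA, against 21.8 CPM in E6, while replicates 2 and 3 had 77.0 and 84.4 CPM in BA, against 39.4 and 38.4 CPM in E6. The BA minus E6 difference was thus -1.29 in replicate 1 and 1.04 in replicates 2 and 3 on the log2(CPM + 0.5) scale. BA at 42 h, also a single library, had 6.13 CPM, and both it and replicate 1 at 48 h were the BA libraries with low CDH1; the part of what sets them apart was not tested. BA at 48 h was called above t0 (2.28 ± 0.61, adjusted p = 0.0451), yet the call was lost on leaving out any of the 6 libraries other than BA replicate 1, with adjusted p of 0.13 to 0.141. In E6 at 48 h FOXI3 had 21.8, 39.4 and 38.4 CPM, against 5.81, 9.05 and 6.21 CPM in E8 at 48 h. These do not overlap; the difference was not called without the block (2.26 ± 0.61, adjusted p = 0.318) and was called with it (2.22 ± 0.51, adjusted p = 0.0396).

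**Figure D4:**
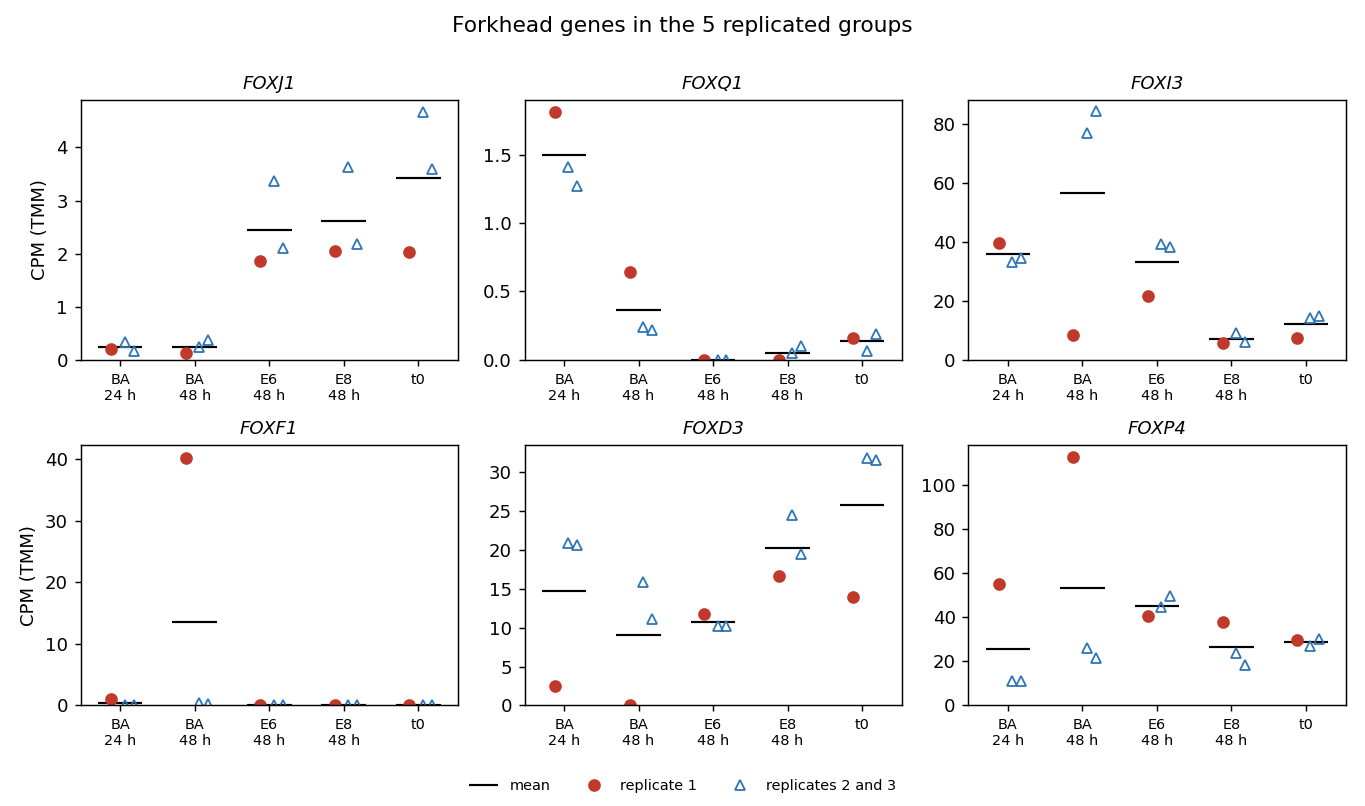
CPM of 6 forkhead genes in the 5 groups with 3 libraries; red circles are replicate 1, blue triangles are replicates 2 and 3, and bars are means. FOXJ1 is low in all 6 BA libraries, whereas FOXI3, FOXF1, FOXD3 and FOXP4 in BA at 48 h split between replicate 1 and the other two.

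FOXH1, the DNA-binding partner of SMAD2, SMAD3 and SMAD4 in Nodal signalling, was expressed in every library at 19.4 CPM or more. In BA it had 21.8, 24.4, 25.5, 31.4, 54.1, 58.3, 96.9 and 42.9 CPM, against 20.5, 26.2, 69.4, 24.4, 23.5, 27.4, 26.5 and 37.0 CPM in E6. The 2 media lay close together at 6 and 12 h, E6 was the higher at 18 h, in the library with the most ribosomal protein counts of its set, and BA was the higher at 24 h and later. The average difference was small, at 0.40. The edgeR test of medium and interaction together was called (adjusted p = 0.0112), as was the change with time (adjusted p = 0.033). The former call was lost without the 6 or 30 h libraries (adjusted p = 0.0684 and 0.0614). In all, 4 of 14 alternative fits ended it, with an adjusted p of up to 0.329. In replicates 2 and 3 the order was the other one, with 58.0 and 43.5 CPM in BA at 48 h, against 64.1 and 65.1 CPM in E6 at 48 h. At t0 FOXH1 had 20.6 CPM in replicate 1 but 65.7 and 59.5 CPM in replicates 2 and 3, the libraries with more counts in ribosomal protein genes. The part of that share in the FOXH1 level was not tested.

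Of 15 Nodal and SMAD genes listed with FOXH1, 8 were higher and 3 lower in BA than in E6 over the course. Their median log2 difference was 1.37, against -0.01 over all genes. Of all genes tested in this fit, 14.7% were called higher and 13.9% lower. EOMES (7.78), MIXL1 (6.78) and NODAL (3.74) were among those with the smallest adjusted p. The list of 14 lateral and nascent mesoderm genes had 13 tested and 13 higher in BA (median 5.66), including HAND1 (8.34) and TBX3 (6.89), and all 10 of the definitive endoderm genes were higher (median 5.34), including LHX1 (5.35) and SOX17 (6.37). GATA4 and GATA6 stand in both lists. In the same fit, 7 of the 12 pluripotency markers were lower and 1 higher (median -0.35), among them SOX2, which fell by 2.97 relative to E6, and PRDM14, which fell by 2.61. In the replicated BA at 48 h against E6 comparison, edgeR called fewer. There 4 of 15 Nodal and SMAD genes, 7 of 13 mesoderm genes and 2 of 10 endoderm genes were higher, and none in these lists was lower. Of all genes tested, 2.03% were called higher and 1.49% lower. Of the 12 pluripotency markers 0 were called there, with 4 at an unadjusted p under 0.05.

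6 members were lower in BA than in E6 at 8 of 8 hours: FOXD3, FOXB1, FOXB2, FOXJ1, FOXL2 and FOXO4. The share of all genes lower at 8 of 8 hours was not computed. All 6 were called in the fit, which called 13.9% of all genes lower. FOXD3 had 6.96, 8.71, 4.05, 2.48, 0.874, 0.303, 0.121 and 0.0639 CPM in BA, against 14.8, 20.3, 35.6, 18.1, 16.8, 14.0, 11.7 and 11.7 CPM in E6. The BA level at 48 h was 1 count in 16390111. The fitted difference was -3.98 (adjusted p = 1.6e-08) and changed with time (adjusted p = 7.94e-05). Replicates 2 and 3 did not follow: they had 15.8 and 11.1 CPM in BA at 48 h, against 10.2 and 10.2 CPM in E6 at 48 h, and 20.9 and 20.6 CPM in BA at 24 h, against 31.8 and 31.5 CPM at t0. Adding those libraries to the time course ended the FOXD3 call (adjusted p = 0.074). FOXD3 shares 179 bases of exon with the opposite-strand transcript FOXD3-AS1.

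FOXB1, a factor of the hypothalamus and midbrain in the mouse, had 1.79, 1.66, 1.03, 1.34, 0.668, 0.242, 0.971 and 0.0639 CPM in BA, against 5.3, 7.81, 11.3, 6.59, 7.02, 8.7, 15.2 and 15 CPM in E6. Every BA library lay below every E6 library, and the fitted difference was -3.44 (adjusted p = 4.81e-06). E8 libraries of the course were between 6.72 and 17.8 CPM, in the range of E6. FOXB1 kept this direction in replicates 2 and 3, with 1.5 and 1.62 CPM in BA at 48 h, against 4.76 and 4.6 CPM in E6 at 48 h; the replicated fit called it with the block (-2.57 ± 0.74, adjusted p = 0.0295) and not without it (adjusted p = 0.0975). At t0 FOXB1 had 3.09, 2.22 and 1.09 CPM, which overlapped BA at 24 h (1.34, 2.26 and 3.05 CPM). All t0 values lay below E6 at 48 h and below E8 at 48 h (10.1, 3.69 and 3.26 CPM). The gap between BA and E6 thus holds a rise above t0 in the media without the 2 ligands. Its relative FOXB2 had 0 to 0.474 CPM in BA, against 0.682 to 1.79 CPM in E6 (-3.84, adjusted p = 0.00011), and BA was at 0 counts at 30, 42 and 48 h.

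FOXJ1, the factor that switches on genes of motile cilia, was the only member called in BA at 24 h against t0, in BA at 48 h against t0 and against E6, and over the time course. It had 0.207, 0.345 and 0.159 CPM in BA at 24 h and 0.128, 0.244 and 0.381 CPM in BA at 48 h, against 1.87, 3.36 and 2.11 CPM in E6 at 48 h and 2.04, 4.67 and 3.59 CPM at t0. All 6 BA libraries lay below all the E6 and t0 libraries. The log2 changes were -3.78 ± 0.49 at 24 h against t0 (adjusted p = 0.00227), -3.64 ± 0.49 at 48 h against t0 (adjusted p = 0.00161) and -3.22 ± 0.48 against E6 (adjusted p = 0.00324), all by the edgeR quasi-likelihood test. The level was low from the first hour sampled, at 0.474 CPM at 6 h in BA against 4.12 CPM in E6, and the time course difference was -3.56 (adjusted p = 7.89e-07). Both calls against t0 held when any library was left out (highest adjusted p 0.0159 and 0.00942). The call against E6 was lost when only the 6 libraries of those groups were fitted (adjusted p = 0.074). Within library sets the BA at 48 h minus E6 difference was -1.92 and -1.97 on the log2(CPM + 0.5) scale. Of 13 cilia genes listed, 8 were tested over the course, with 1 higher (DNAH11, 0.54) and 1 lower (DNAH9, -0.76). Of all genes tested over the course, 14.7% were called higher and 13.9% lower.

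FOXL2, a factor of the ovary and eyelid, had 0.85 to 2.37 CPM in BA, against 2.26 to 5.91 CPM in E6 (-1.60, adjusted p = 0.000143). It was lower in replicates 2 and 3 of every group than in replicate 1, for example 1.13 and 0.936 against 5.55 CPM at t0. The replicated edgeR fit made no call against t0 in BA at 24 h (-2.11 ± 1.04, adjusted p = 0.594) or at 48 h (-1.44 ± 1.01, adjusted p = 0.527). Only with the block was FOXL2 called lower than t0 at 24 h (-2.09 ± 0.34, adjusted p = 0.00328) and at 48 h (-1.31 ± 0.33, adjusted p = 0.0119).

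The FOXO genes, targets of insulin and AKT signalling, moved apart. FOXO1 had 129, 131, 137, 89.3, 77.0, 57.1, 50.4 and 49.0 CPM in BA from 6 to 48 h, against 116, 114, 75.8, 99.2, 120, 120, 128 and 124 CPM in E6. It was above E6 at 6, 12 and 18 h and below it at every later hour. Its average difference was -0.41. The edgeR test of medium and interaction together was called (adjusted p = 4.17e-05), as was the change with time (adjusted p = 0.000466). In replicates 2 and 3 the order at 48 h was the other one, with 91.5 and 89.3 CPM in BA, against 55.2 and 54.2 CPM in E6. FOXO4 had 11.1 to 16.8 CPM in BA, against 21.5 to 33.8 CPM in E6, and was lower in BA at 8 of 8 hours (-0.94, adjusted p = 2.75e-05). FOXO4 too was otherwise ordered in replicates 2 and 3 at 48 h, with 35.8 and 33.9 CPM in BA, against 25.4 and 24.1 CPM in E6. FOXO6, the member that lacks the usual shuttling out of the nucleus, had 2.95, 3.26, 1.57, 3.1, 2.62, 1.39, 0.425 and 0.702 CPM in BA, against 0.687, 0.715, 0.632, 1.36, 0.688, 0.6, 0.833 and 1.82 CPM in E6 (0.98, adjusted p = 0.00422). FOXO3 was not called, with 24.9 to 35.6 CPM in BA, against 16.2 to 37.2 CPM in E6. Of 16 FOXO target genes, 15 were tested over the course. Of these, 3 were higher, among them CCNG2 (1.96) and GADD45A (1.27), and 5 lower, among them TXNIP (-1.02) and BCL2L11 (-0.595). Of all genes tested in that fit, 14.7% were called higher and 13.9% lower.

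The FOXP genes, known for roles in brain, lung and blood, also differed among themselves. FOXP4 had 30.4, 28.4, 27.7, 55.2, 89.7, 103, 99.4 and 113 CPM in BA, against 35.2, 39.2, 38.8, 38.0, 30.5, 34.5, 25 and 40.5 CPM in E6. It was below E6 up to 18 h and above it from 24 h on (0.76, adjusted p = 1.69e-05; change with time, adjusted p = 0.000625). In BA at 48 h replicates 2 and 3 had 25.9 and 21.5 CPM, against 44.5 and 49.8 CPM in E6 at 48 h, so the direction was the other one there. FOXP2 had 2.53, 3.55, 3.32, 5.01, 5.6, 8.3, 5.64 and 6.64 CPM in BA, against 0.506 to 1.58 CPM in E6, without overlap (2.18, adjusted p = 1.18e-05). FOXP2 kept that direction in replicates 2 and 3 at 48 h, with 0.557 and 0.667 CPM in BA, against 0.175 and 0.267 CPM in E6.

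FOXP1 crossed over during the course. It had 30.1, 39.8, 40.3, 33.8, 24.5, 16, 12.8 and 10.9 CPM in BA, against 21.7, 22.4, 19.2, 22.1, 25.2, 20.8, 22.1 and 22.6 CPM in E6. BA was the higher at 4 hours and the lower at 4, so the average of 0.10 has no useful sign: it became -0.01 without the 12 h libraries and -0.06 without the 18 h libraries. The test as a whole was called (adjusted p = 9.98e-05), as was the change with time (adjusted p = 0.000397). FOXP3, the factor of regulatory T cells, stayed at or under 1.51 CPM in every library and was not called over the course (-0.34, adjusted p = 0.297).

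FOXN4, of retinal and spinal interneuron precursors in the mouse, was under 1 CPM in BA up to 36 h and then had 3.46 and 5.68 CPM at 42 and 48 h, against 1.0 and 1.93 CPM in E6 at those hours. Its average difference of -0.25 has the sign of the 6 earlier hours, when BA was the lower. That average was 0.03 without the 12 h libraries. The edgeR test of medium and interaction together was called (adjusted p = 0.0304). The call was lost without the 6, 12, 30, 42 or 48 h libraries (adjusted p 0.0614 to 0.12). In replicates 2 and 3 FOXN4 had 1.53 and 1.14 CPM in BA at 48 h, against 4.64 and 4.54 CPM in E6, below E6 where replicate 1 was above.

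The 10 members not called over the course included 4 of the 6 with the highest median level per kilobase. FOXM1, which drives G2 and mitosis genes, had 235 to 303 CPM in BA, against 223 to 267 CPM in E6 (0.15, adjusted p = 0.348). Its 15 listed cell cycle targets had 0 higher and 1 lower, CDC25B (-0.475), against 14.7% of all genes called higher and 13.9% lower. In replicates 2 and 3 FOXM1 was lower at 48 h in E8 (135 and 117 CPM) than at t0 (233 and 229 CPM), whereas replicate 1 had 232 CPM in E8 and 251 CPM at t0. This was called with the block (-0.58 ± 0.11, adjusted p = 0.00528) and not without it (adjusted p = 0.423 by edgeR). FOXK2 was the most even member, between 80.3 and 121 CPM in all 35 libraries, a 1.5-fold range. FOXA3, an endoderm and liver factor, had 10.8 to 16.7 CPM in BA, against 10.7 to 27.1 CPM in E6. FOXJ3 had 82.7 to 127 CPM in BA, against 53.6 to 104 CPM in E6. FOXN3, a checkpoint factor, had 123 to 266 CPM in BA, against 54.7 to 180 CPM in E6 (adjusted p = 0.0943), its E6 minimum being the 18 h library. FOXN2 was at 32.0 to 41.8 CPM in BA, against 19.1 to 45.1 CPM in E6, and at 9.99 to 14.3 CPM in all 10 libraries of replicates 2 and 3. FOXD1, of kidney stroma and retina, was not tested over the course; it had 1.43 ± 0.965 CPM in BA at 48 h, against 0.199 ± 0.0454 CPM at t0 (SD, n = 3 each; adjusted p = 0.0836 by edgeR, 0.00312 with the block).

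The 13 members under the level of description included FOXA1, FOXC2, FOXD4, FOXE1, FOXE3, FOXI1, FOXI2, FOXL1, FOXN1, FOXR1, FOXR2 and FOXS1. FOXR2 had 0 counts in all libraries, which allows at most 3 counts in any of them, and FOXN1, of the thymus, had 1 count in all. FOXA1, a pioneer factor of endoderm, had its highest value, 1.09 CPM, in replicate 1 of BA at 48 h and was higher in BA than in E6 at 8 of 8 hours, with 95 counts in all 35 libraries. FOXD4 has closely similar copies in the genome, which makes its 32 counts uncertain.

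Only a few members were called in the replicated groups, in which 15 libraries of 5 groups were fitted together and 33 members tested. BA at 24 h against t0 gave 2 calls, FOXQ1 higher and FOXJ1 lower, against 1.57% of the 21554 genes tested (1.26% higher, 0.315% lower). BA at 48 h against t0 gave 3, FOXD2 and FOXI3 higher and FOXJ1 lower, against 6.37% (4.59% and 1.78%). BA at 48 h against E6 at 48 h gave 2, FOXQ1 higher and FOXJ1 lower, against 3.52% (2.03% and 1.49%). BA at 48 h against BA at 24 h gave 0, against 0.455%, with 4 members at an unadjusted p under 0.05 and 2 called by DESeq2, FOXN4 higher and FOXQ1 lower at 48 h (0.343% of all genes were called higher and 0.111% lower by edgeR).

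With the replicate number as a block, the counts were 6 for BA at 24 h against t0 (8.95% of all genes), 13 for BA at 48 h against t0 (28.5%), 11 for BA at 48 h against E6 (22.1%) and 3 for BA at 48 h against BA at 24 h (10%). The last 3 were FOXC1, higher at 48 h (2.54 ± 0.55, adjusted p = 0.0167), and FOXQ1 and FOXN3, lower at 48 h (-2.12 ± 0.44, adjusted p = 0.0186, and -0.48 ± 0.13, adjusted p = 0.0361). Besides genes already given, the block added FOXP2 and FOXN3 at 24 h against t0, and at 48 h against t0 FOXB2, FOXF2, FOXJ2, FOXN4, FOXO6, FOXP2 and FOXP3. Against E6 at 48 h it added FOXB2, FOXD2, FOXM1 (0.46 ± 0.11, adjusted p = 0.0139), FOXP2 and FOXP3.

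Counts of calls rested on which libraries were fitted. With replicates 2 and 3 alone, 2 libraries a group, the forkhead calls were 18 for BA at 24 h against t0 (20.7% of all genes), 22 for BA at 48 h against t0 (46.7%), 17 for BA at 48 h against E6 (36.7%) and 19 for BA at 48 h against BA at 24 h (34.1%). By DESeq2 on all 15 libraries they were 2 (3.92%), 7 (11.7%), 5 (7.44%) and 2 (3.12%) in the same order. For E6 against E8 at 48 h replicates 2 and 3 alone gave 13 (18.4%) and DESeq2 1 (1.05%), and for E8 at 48 h against t0 they gave 19 (51.3%) and 0 (6.08%). Over the course, adding replicates 2 and 3 left 10 forkhead calls for BA against E6 (12.3% of all genes), and DESeq2 made 22 (32.5%). For E6 against E8 over the course these settings gave 1 call each (0.258% and 0.645% of all genes).

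No forkhead gene was called between the media without added BMP4 and Activin A. E6 against E8 over the course gave 0 calls among 26 members tested, against 0.0228% of 17530 genes (0.0114% higher, 0.0114% lower). In that comparison 1 member, FOXI3, was at an unadjusted p under 0.05 (log2 difference 0.43, adjusted p = 0.106), and DESeq2 called 1. FOXI3 in E6 rose above E8 late: the differences were 0.65, 1.27 and 1.82 at 36, 42 and 48 h on the log2(CPM + 0.5) scale. At 48 h E6 against E8 gave 0 calls in the replicated fit (0.144% of all genes, 0.0882% higher and 0.0557% lower), 2 members at an unadjusted p under 0.05, 1 call by DESeq2 and 1 with the block (2.84% of all genes), FOXI3. E8 at 48 h against t0 gave 0 (0.139%, 0.135% higher and 0.00464% lower), 1 member at an unadjusted p under 0.05, 0 by DESeq2 and 2 with the block (25.6% of all genes), FOXM1 and FOXO6 (1.64 ± 0.51, adjusted p = 0.0355).

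The remaining gene lists, fixed with earlier results known, were read in the BA against E6 time course. In that fit 14.7% of all genes were called higher and 13.9% lower. Of 14 preplacodal and surface ectoderm genes listed with FOXI3, 13 were tested, 7 were higher and 3 lower (median 0.68), GATA3 (7.68), GATA2 (7.23), TFAP2A (7.43) and DLX6 (6.19) having the smallest adjusted p. Of 12 forebrain genes, 9 were tested, 1 was higher (DLX2, 4.56) and 7 lower (median -1.86), among them SIX6, which fell by 3.18. Of 10 neural crest genes listed with FOXD3, 7 were tested, 4 were higher, among them SNAI2 (1.92) and MSX1 (6.93), and 1 lower, SOX9, by a fall of 1.03 (median 0.55). Of 8 fibroblast markers 6 were tested, with 3 higher and 1 lower (median 0.74), and of 8 blood and endothelial markers 5 were tested, with 1 higher (RUNX1, 2.21) and 1 lower (CDH5, which fell by 1.23). In BA at 48 h against E6 at 48 h, the replicated edgeR fit called 7 preplacodal genes higher and 1 lower of 14, 2 forebrain genes lower of 11, 1 cilia gene lower of 10, 1 FOXM1 target higher of 15, 1 fibroblast marker higher of 6 and 1 blood and endothelial marker higher of 6. It called 0 of 16 FOXO targets and 0 of 8 neural crest genes, with 5 in each list at an unadjusted p under 0.05. Of all genes tested, it called 2.03% higher and 1.49% lower.

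In the authors' deposited table, whose header does not name the group compared against, 3 of 43 members had an adjusted p below 0.05 for BA at 24 h (FOXI3, FOXJ1 and FOXQ1), against 1.62% of all its genes. The authors' deposited table held 6 for BA at 48 h (FOXB2, FOXC1, FOXD1, FOXD2, FOXJ1 and FOXN4; 3.49% of all), 7 for E6 at 48 h (FOXB1, FOXD1, FOXD3, FOXI3, FOXN4, FOXO6 and FOXP4; 3.85%) and 1 for E8 at 48 h (FOXN4; 1.39%).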

How the data were processed

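Poly(A) RNA of H9 cells was sequenced in 35 libraries. The authors deposited raw counts per gene, made with featureCounts on hg38 per the submitters' processing notes. The authors also deposited a DESeq2 table of log2 fold changes and p-values, whose reference group the file headers do not name. Versions and strand setting are not given in the sources used here. Members and gene lists were chosen with earlier results of these data known. One forkhead gene is not reported here.

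Counts were scaled with TMM factors to CPM and tested with edgeR 4.0.16 (limma 3.58.1, R 4.3.3) by quasi-likelihood F-tests with Benjamini-Hochberg adjustment over all genes tested, called below 0.05. The replicated fit held 15 libraries of 5 groups with edgeR's filter on low counts. The time course fits held 16 libraries each, with a natural spline of 3 degrees of freedom and genes needed 10 counts at the median library size in 3 libraries and 15 counts in all. Differences per hour or per library set use log2(CPM + 0.5). Detail was given for genes at 1 CPM or more in 3 libraries, the named members being all of these, and from each list at most 4 called genes with the smallest adjusted p. Bounds use a floor of 3 counts per library and cover counting error only. Gene positions came from GENCODE 29 and promoters from RefSeq; Python 3.11.15 with pandas 2.3.3 did the rest. Tests were checked on simulated data.

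Same-numbered replicates of different groups deviated together (30 pairs, r 0.616 to 0.91), while replicates 2 and 3 of different groups gave r of 0.588 to 0.776. These ranges overlap, and 12 of 15 libraries deviated most like those of their own number. Within groups, r was 0.992 to 0.995 between replicates 2 and 3, and 0.893 to 0.932 between replicate 1 and either. Because replicate 1 stood apart in each group, matches among replicate 1 libraries reflect that split. They cannot tell whether numbers 2 and 3 pair across groups. The numbers were taken to pair libraries, from the data and not the labels, and fits with the number as a block were made. Calls with the block rest on that pairing, which was inferred from the same data. Other alternatives were DESeq2 1.42.0, RLE factors, no filter, replicates 2 and 3 only, 2 groups only, the time point as a block, replicates added and each library left out. Leaving out the 18 and 42 h libraries together was chosen after seeing the data.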

Additional observations from a re-analysis of the deposited data

Results flagged for a closer look

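For 7 forkhead genes the difference between BA and E6 itself changed with time, by the edgeR test of the interaction of medium and time (8.28% of all genes passed it). The adjusted p was 7.943e-05 for FOXD3, whose difference was -1.04 at 6 h and -4.43 at 48 h on the log2(CPM + 0.5) scale. It was 0.0003974 for FOXP1 and 0.0004659 for FOXO1, which were above E6 early and below it late, and 0.0006246 for FOXP4, which was below E6 early and above it late. It was 0.001102 for FOXI3, which was above E6 until 36 h and below it at 42 and 48 h. It was 0.03302 for FOXH1, whose difference was -1.43 at 18 h, 1.85 at 42 h and 0.21 at 48 h, and 0.0424 for FOXC1, whose difference was 0.96 at 6 h and 6.48 at 42 h. These tests rest on 1 library per medium and hour. At 48 h, replicates 2 and 3 had the other direction for FOXD3, FOXP1, FOXO1, FOXP4, FOXI3 and FOXH1 and the same direction for FOXC1.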

How the results depend on the processing

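With the replicate number as a block, forkhead calls were 6 for BA at 24 h against t0, 3 for BA at 48 h against BA at 24 h, 13 for BA at 48 h against t0, 11 for BA at 48 h against E6, 1 for E6 against E8 at 48 h and 2 for E8 at 48 h against t0, and the 7 calls made without the block held. Of all genes, the block called 8.95, 10, 28.5, 22.1, 2.84 and 25.6% in that order. With replicates 2 and 3 only the forkhead calls were 18, 19, 22, 17, 13 and 19 in the same order. Of all genes, 20.7, 34.1, 46.7, 36.7, 18.4 and 51.3% were called there. DESeq2 made 2 for BA at 48 h against BA at 24 h (3.12% of all genes), 7 for BA at 48 h against t0 (11.7%), 5 for BA at 48 h against E6 (7.44%) and 1 for E6 against E8 at 48 h (1.05%). Fitting only the libraries of both groups left 0 for BA at 48 h against E6. On leaving out each library, counts were 1 for BA at 24 h against t0, 1 to 4 for BA at 48 h against t0 (1 without any t0 library), 1 to 2 for BA at 48 h against E6 (1 without E6 replicate 2 or 3) and 0 to 1 for E8 at 48 h against t0 (1 without E8 replicate 1). Shares of all genes are not given for these fits, so the counts show only how forkhead calls depend on single libraries. Over the course, adding replicates 2 and 3 gave 10 for BA against E6 (12.3% of all genes), against 21 as reported (28.6%). For E6 against E8 it gave 1 (0.258%), DESeq2 gave 1 (0.645%), and leaving out each hour gave 0 to 1 (1 without 18 h). Among course calls, FOXP1 became -0.008 without 12 h and -0.057 without 18 h (range -0.057 to 0.274), and FOXN4 0.034 without 12 h (range -0.578 to 0.034). FOXB1, FOXB2, FOXC1, FOXD2, FOXF1, FOXF2, FOXJ1, FOXL2 and FOXQ1 held in all 14 alternatives over the course. The time point as a block ended 8 of the 21 calls and adding replicates 2 and 3 ended 11. Of 14 alternatives, 7 ended the FOXK1 call and 4 the FOXH1 call. The calls of FOXO1, FOXO6 and FOXP4 were ended by 2 each, and those of FOXD3, FOXI3, FOXJ2, FOXO4 and FOXP2 by 1 each. The causes were not tested. Low counts limit FOXQ1, FOXD2, FOXB2 and FOXF1, which had under 1 CPM in most libraries, and 1 library per hour leaves the course without a replicate check.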

Other observations

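In replicates 2 and 3, FOXO6, FOXD1 and FOXN4 were above t0 at 48 h in each of the 3 media. FOXO6 had 8.18 and 6.26 CPM in BA, 9.9 and 11.2 CPM in E6 and 6.15 and 4.98 CPM in E8, against 1.91 and 1.76 CPM at t0. FOXD1 had 2.09 and 1.87 CPM in BA, 2.07 and 1.78 CPM in E6 and 0.968 and 0.491 CPM in E8, against 0.239 and 0.15 CPM at t0. FOXN4 had 1.53 and 1.14 CPM in BA, 4.64 and 4.54 CPM in E6 and 2.51 and 2.42 CPM in E8, against 0.682 and 0.711 CPM at t0. In replicate 1, FOXO6 had 0.702 CPM in BA, 1.82 CPM in E6 and 1.82 CPM in E8, against 0.629 CPM at t0. FOXD1 in replicate 1 had 0.319 CPM in BA, 0.165 CPM in E6 and 0.285 CPM in E8, against 0.21 CPM at t0, so E6 was below t0 there. FOXN4 in replicate 1 had 5.68 CPM in BA, 1.93 CPM in E6 and 1.2 CPM in E8, against 0.472 CPM at t0. These genes were singled out after their values were seen.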
